A study of Mus musculus with 6 samples.

Results

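The cytosolic ribosomal protein genes encode the protein part of the ribosomes that translate nuclear mRNAs in the cytoplasm. They were examined in aortas of mice deficient in endothelial nitric oxide synthase (eNOS), the endothelial enzyme encoded by Nos3 that produces nitric oxide, and in wild-type aortas. Members were all genes whose probe set lists a single symbol of the Rpl or Rps series, with Rpsa, Rplp0, Rplp1 and Rplp2, and without ribosomal S6 kinases and pseudogenes. This gave 67 of 22184 named genes, 25 of the small subunit and 42 of the large subunit. Of 80 ribosomal proteins listed for the mammalian ribosome, 58 are among them, and the other 9 members are paralogs and like-named genes. The remaining 22 were not members. For some, such as Rps2, Rpl10 and Rpl23, the annotation lists only probe sets shared with other symbols, Fau has a symbol outside the series, and others were not analysed here.

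Total RNA from 3 eNOS-deficient aortas (11, 15 and 19, as numbered in the titles) and 3 aortas of age-matched wild-type mice (2, 3 and 5) was hybridised to 1 Affymetrix array each. The labels state no age, sex, strain, allele or batch. They do not say whether the aortas came from separate animals, and p-values therefore reflect the spread among 6 samples that may be partly technical. Values are log2 signals, and a difference is eNOS-deficient minus wild type. The signal of a probe set depends on its probes as well as on the transcript, so levels of different genes are not compared.

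A ribosomal protein is made in step with its partners, and each assembled subunit holds most of them once. Mouse ribosomal protein mRNAs typically start with a C and a run of pyrimidines, the terminal oligopyrimidine (TOP) tract, through which mTOR and the RNA-binding protein LARP1 control their translation. Their level in a tissue is known to follow growth and cell number. Most of the genes also have processed pseudogenes, whose sequence the probes can share, so a probe set does not necessarily read 1 gene alone.

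Start regions of 9 members are shown because the results below turn on them or because they carry a TOP tract. The sequences are from RefSeq on GRCm38.p6, 60 bases before and 20 from the annotated start, read 5′ to 3′ on the strand of the gene. The capitals mark the first transcribed base and, where it is a C, the unbroken run of C and T that follows.
Rps6 at chr4:86857348-86857427, minus strand: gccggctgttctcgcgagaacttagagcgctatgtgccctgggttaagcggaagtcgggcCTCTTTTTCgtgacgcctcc
Rpl28 at chr7:4792905-4792984, plus strand: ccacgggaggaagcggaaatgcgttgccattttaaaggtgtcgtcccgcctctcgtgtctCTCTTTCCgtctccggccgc
Rps18 at chr17:33955646-33955725, minus strand: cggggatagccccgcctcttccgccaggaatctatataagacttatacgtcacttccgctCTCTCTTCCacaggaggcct
Rps12 at chr10:23787190-23787269, minus strand: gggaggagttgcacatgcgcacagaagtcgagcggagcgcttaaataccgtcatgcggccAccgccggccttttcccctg
Rps28 at chr17:33824543-33824622, minus strand: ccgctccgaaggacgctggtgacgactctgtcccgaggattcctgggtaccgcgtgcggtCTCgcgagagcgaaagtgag
Rpl13 at chr8:123102290-123102369, plus strand: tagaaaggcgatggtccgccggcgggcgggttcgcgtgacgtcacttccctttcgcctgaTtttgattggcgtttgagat
Rpl22l1 at chr3:28805448-28805527, plus strand: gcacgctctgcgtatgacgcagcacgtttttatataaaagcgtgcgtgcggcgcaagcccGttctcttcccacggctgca
Rps27l at chr9:66946026-66946105, plus strand: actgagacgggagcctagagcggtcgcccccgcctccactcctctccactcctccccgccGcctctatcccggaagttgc
Rpl3l at chr17:24727766-24727845, plus strand: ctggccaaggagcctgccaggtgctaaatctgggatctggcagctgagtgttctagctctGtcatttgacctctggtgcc
For Rps27l and Rpl3l the table has 2 starts each, and the upstream one is shown.

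RefSeq start regions, 250 bases before and 50 after the start, were matched for 52 of the 67 members. A C at the annotated start followed by at least 4 bases that are C or T was found in 11 of these (21.2%), against 0 of 69 mitochondrial ribosomal protein genes and 3.01% of 27025 genes. With 5 bases of tolerance on either side of the start, the counts were 22 of 52 members (42.3%), 17 of 69 mitochondrial genes (24.6%) and 21.2% of all genes. The letters CCGGAAG, a core that ETS-family factors bind, stood on either strand in 23 members (44.2%), in 26 mitochondrial ribosomal protein genes (37.7%) and in 9.93% of all genes. TATAAA on either strand was found in 6 members (11.5%) and in 15.7% of all genes. No match says only that the letters are not in this window at the annotated start.

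Smooth muscle markers were well expressed on every array, with a mean over 10 genes of 9.37 to 9.64 in eNOS-deficient aorta and 9.10 to 9.35 in wild type. Nos3, the targeted gene, stood at 7.13, 7.39 and 7.27 in eNOS-deficient aorta and at 7.99, 7.88 and 7.36 in wild type (limma adjusted p = 0.399), so wild type 5 lay inside the eNOS-deficient range. Where the probes lie relative to the targeted part of the gene is not known here, so this value checks no label. Endothelial markers, 12 genes, averaged 7.98, 8.24 and 8.32 in eNOS-deficient aorta and 8.52, 8.59 and 7.81 on wild type 2, 3 and 5. They were thus lowest on wild type 5, and their part in the Nos3 values was not tested. Other cell types also varied. All 10 macrophage markers had a positive difference, where 56.6% of all genes had one. Of these markers 8 were higher at an unadjusted p under 0.05 in limma, where 7.86% of all genes were. Macrophage means were 8.35 to 8.72 in eNOS-deficient aorta and 7.53 to 7.96 in wild type. All 10 fibroblast markers also had a positive difference, 4 of them at an unadjusted p under 0.05. Squamous epithelium genes averaged 5.16 to 5.17 in eNOS-deficient aorta and 6.11, 5.42 and 8.57 on wild type 2, 3 and 5. Markers of B cells averaged 5.98 on eNOS-deficient 11 and 8.04 to 8.60 on the other arrays. Whole-tissue RNA cannot tell fewer cells of a type from less RNA per cell, and the part of these cells in the members' values was not tested.

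The question for the members was whether their transcripts differ between eNOS-deficient and wild-type aorta. The median difference over the 65 members bright enough to be tested was -0.01 log2, beside 0.04 over all 18008 genes tested. The median of all genes rose with the brightness required. It was 0.006 with no filter and 0.08 with a filter at the 50th percentile, while the members' median was -0.01 in both. Centring each array moves all genes alike: with arrays centred on their medians the members' median was 0.06 and that of all genes 0.10, and with arrays centred on mitochondrial ribosomal protein genes they were -0.24 and -0.19. With quantile normalization repeated they were -0.05 and 0.03. There were 29 members with a positive difference, where 56.6% of all genes had one, and 36 with a negative one, where 43.4% had one. The quartiles of the members lay at -0.15 and 0.10. No member passed an adjusted p under 0.05 in limma, a threshold that 0.0278% of all genes passed, and the smallest adjusted p of a member was 0.281. At an unadjusted p under 0.05, 4 members were lower in eNOS-deficient aorta, where 3.72% of all genes were. At the same threshold 1 member was higher, where 7.86% of all genes were. The groups of arrays did not overlap for 7 members, all lower, beside 6.47% of all genes lower and 13.1% higher without overlap. The members' median standard error was 0.15 log2.

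Small subunit members had a median difference of -0.04, with 10 positive and 15 negative. Large subunit members had one of -0.0034, with 19 positive and 21 negative. The mean over small subunit members was 7.86 ± 0.067 in eNOS-deficient aortas and 7.93 ± 0.072 in the wild type (SD, n = 3 each). Over large subunit members it was 8.24 ± 0.058 in eNOS-deficient aortas and 8.22 ± 0.12 in the wild type. This large subunit mean takes in all 42 members, with the 2 too dim to be tested, whereas the median and counts cover 40. In both subunits the arrays of the genotypes overlapped. Members that have a counterpart in bacteria and archaea numbered 25, with a median of -0.05, and the other 33 proteins of the ribosome had one of -0.01. The 10 tested members with a TOP tract at the annotated start had a median of 0.02, and the 40 with a start region but no tract there one of -0.02.

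**Figure D1:**
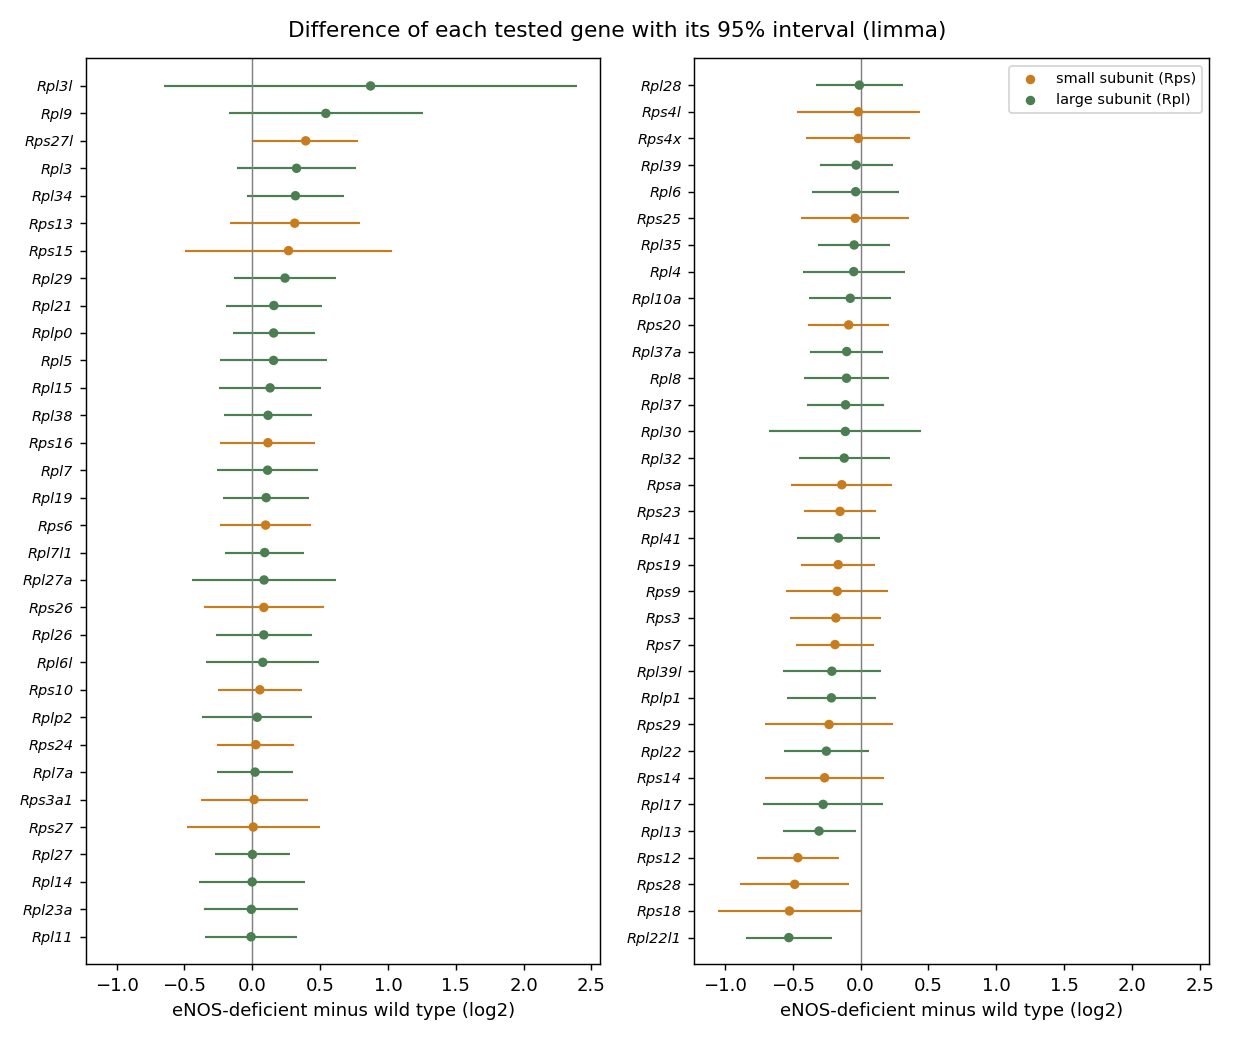
Difference in log2 signal, eNOS-deficient minus wild type, of each of the 65 tested ribosomal protein genes (points) with its 95% interval from limma (lines), ordered by size and coloured by subunit. Most intervals cross 0; those of Rpl22l1, Rps12, Rps28 and Rpl13 lie below it and that of Rps27l just above it.

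The members also varied from array to array within each genotype. Relative to the wild-type mean of each gene, the median member stood at -0.09, -0.03 and 0.06 on eNOS-deficient 11, 15 and 19, and at -0.11, 0.00 and 0.08 on wild type 2, 3 and 5. Each genotype thus had an array that was low and one that was high. Of the 65 members, 24 had their lowest value on eNOS-deficient 11 and 22 on wild type 2, while 21 had their highest on wild type 5 and 15 on eNOS-deficient 19. The median over all genes lay between -0.05 and 0.04 on the same scale, lowest on wild type 5, where the members were highest. Within genotypes the median correlation between 2 members was 0.25 over the 6 arrays (2080 pairs, 64.9% positive), a description of values that share arrays and scaling. What sets these arrays apart was not tested.

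**Figure D2:**
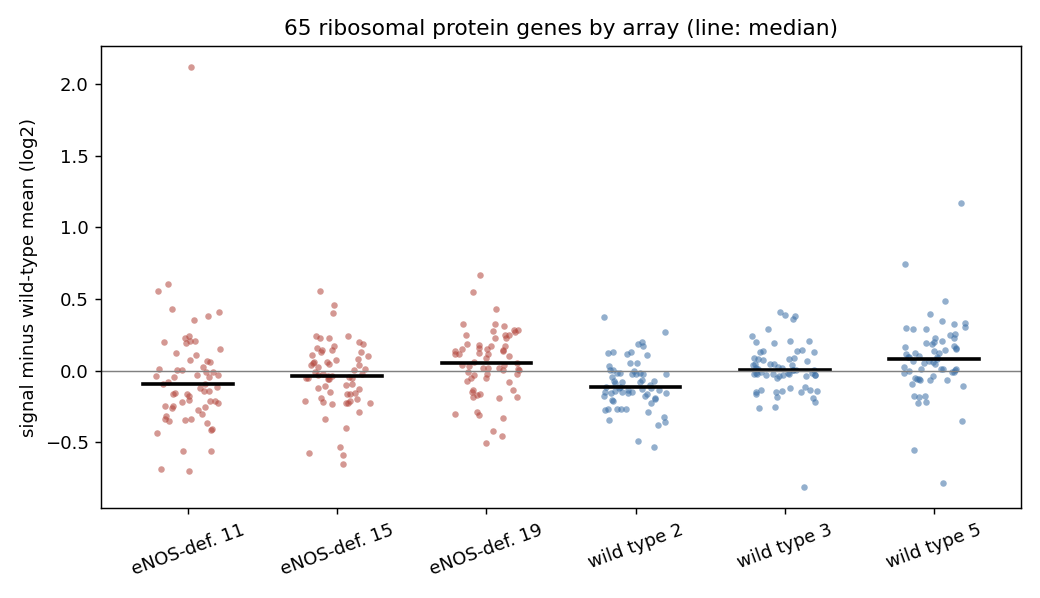
Log2 signal of the 65 tested members on each array minus the gene's wild-type mean (points, jittered sideways), with the median as a line, for eNOS-deficient 11, 15 and 19 and wild type 2, 3 and 5. Medians run from -0.09 to 0.06 in eNOS-deficient and from -0.11 to 0.08 in wild-type aorta, and the highest point is Rpl3l on eNOS-deficient 11.

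Among small subunit genes, Rps12 and Rps28 lay lower in eNOS-deficient aorta. Rps12, a protein of the small subunit's beak, measured 8.72, 8.75 and 8.99 in eNOS-deficient aorta, against 9.39, 9.27 and 9.19 in wild type. All eNOS-deficient arrays were below all wild-type arrays, with a difference of -0.46 log2 (standard error 0.13, 95% interval -0.77 to -0.16, limma adjusted p = 0.292). It has 8 probe sets with only 3 distinct sets of values, whose differences lay between -0.51 and -0.46, and wherever a setting was altered its unadjusted p stayed under 0.05 (16 of 16 alternatives).

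Rps28, a small protein near the mRNA exit channel, measured 9.66, 9.76 and 10.16 in eNOS-deficient aorta, against 10.52, 10.34 and 10.16 in wild type. The groups barely separate, since eNOS-deficient 19 and wild type 5 were nearly equal. Its difference was -0.49 (standard error 0.17, limma adjusted p = 0.369), while its second, dimmer probe set gave 0.02. Its unadjusted p stayed under 0.05 in 10 of 16 alternatives and not when eNOS-deficient 11 or 15 or wild type 2 or 3 was left out.

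Rps18, which lies at the head of the small subunit, measured 5.44, 5.57 and 5.84 in eNOS-deficient aorta, against 5.87, 5.92 and 6.62 in wild type. The groups did not overlap, but wild type 5 stood well above the other wild-type arrays. The difference of -0.52 (standard error 0.23) had an adjusted p of 0.435 in limma. Among wild-type arrays, squamous epithelium and skeletal muscle markers were also highest on wild type 5, and their part in the Rps18 value was not tested. Its other 2 probe sets gave -0.21 and -0.01. Rps23, which helps to form the decoding centre, was at 6.62, 6.60 and 6.61 in eNOS-deficient aorta against 6.65, 6.78 and 6.85 in wild type, without overlap and with a difference of only -0.15.

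Rpl13, a large subunit protein, was at 7.87, 7.81 and 8.02 in eNOS-deficient aorta, against 8.20, 8.18 and 8.23 in wild type. The wild-type arrays were close together and all above the eNOS-deficient ones (difference -0.31, standard error 0.11, limma adjusted p = 0.387). Its second probe set gave -0.32. The unadjusted p stayed under 0.05 in 9 of 16 alternatives, and leaving out eNOS-deficient 11 or 15 or wild type 2 or 3 ended that call.

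The paralog Rpl22l1 had the smallest p of all members. It encodes a protein that resembles Rpl22 and can replace it in the ribosome. It measured 4.92, 4.70 and 4.85 in eNOS-deficient aorta, against 5.22, 5.55 and 5.29 in wild type. Its difference was -0.53 (standard error 0.14, 95% interval -0.85 to -0.21, limma adjusted p = 0.281). The groups did not overlap, and the signal is close to the level of 4.38 below which genes were left out. Rpl22 itself was at 5.60, 5.70 and 5.74 in eNOS-deficient aorta against 6.14, 5.79 and 5.88 in wild type, again without overlap (difference -0.25, adjusted p = 0.510). In mouse cells Rpl22 is known to restrain Rpl22l1. Both genes lay on the same side here, and a relation between them was not tested.

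**Figure D3:**
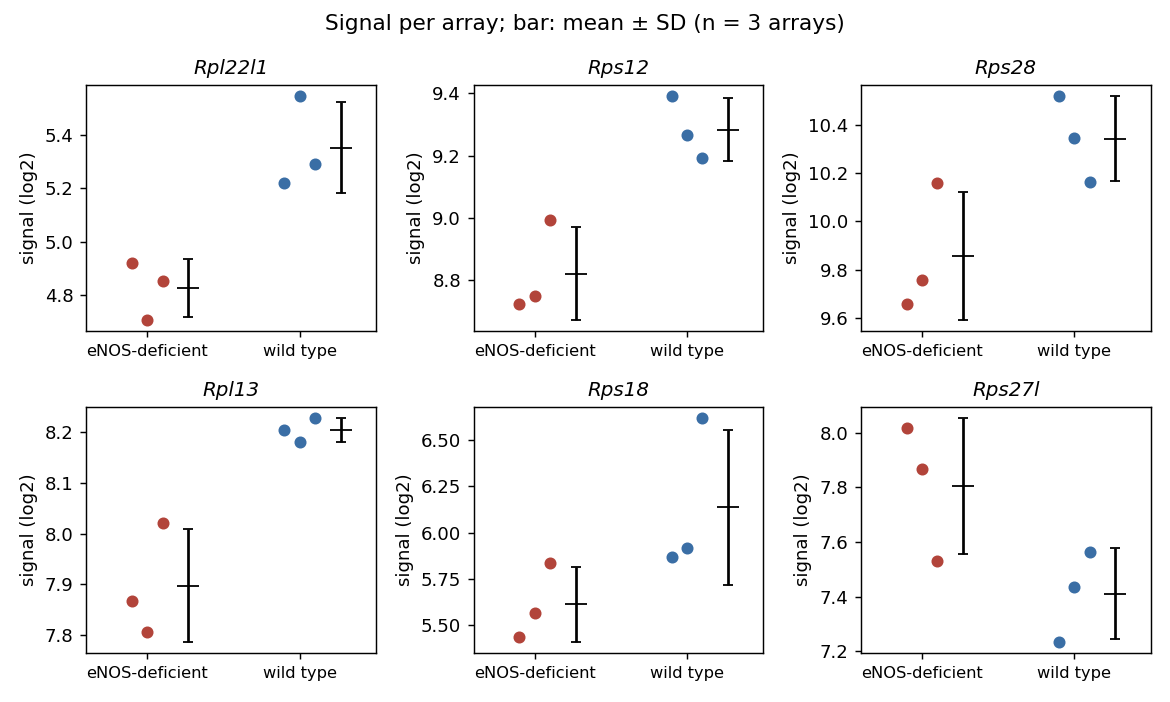
Log2 signal on each array (points) of 6 members, eNOS-deficient left and wild type right, with mean ± SD beside the points (n = 3 arrays each). For Rpl22l1, Rps12, Rps28, Rpl13 and Rps18 all eNOS-deficient arrays lie below all wild-type arrays; for Rps27l eNOS-deficient 19 lies below wild type 5. Vertical scales differ between genes and do not start at 0.

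Rps27l was the member that was higher at an unadjusted p under 0.05. It is a paralog of Rps27 and a target of the tumour suppressor p53. Its signal was 8.02, 7.87 and 7.53 in eNOS-deficient aorta, against 7.23, 7.44 and 7.56 in wild type. The groups overlap by a small margin, and the difference was 0.39 (standard error 0.16, limma adjusted p = 0.426). The unadjusted p was under 0.05 in 9 of 16 alternatives, and was not without eNOS-deficient 11 or 15 or without wild type 2 or 3. Rps27 was at 6.50, 5.89 and 5.98 in eNOS-deficient aorta against 5.89, 6.41 and 6.05 in wild type, a difference of 0.01. Of 15 measured p53 target genes, Rps27l included, 2 were higher at an unadjusted p under 0.05, where 7.86% of all genes were. None was lower, where 3.72% of all genes were. Their differences were positive for 5 and negative for 10, with a median of -0.02. Besides Rps27l the higher gene was Cdkn1a, the cell cycle inhibitor p21. It was at 8.85, 9.25 and 9.97 in eNOS-deficient aorta against 7.71, 8.11 and 9.13 in wild type (difference 1.04, limma adjusted p = 0.402).

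Rpl3l, the paralog of Rpl3 used in striated muscle, had the widest range of the members. It measured 9.35, 7.47 and 7.48 in eNOS-deficient aorta, against 6.87, 6.41 and 8.40 in wild type. The difference was 0.87 with a standard error of 0.65 (limma adjusted p = 0.646). The highest arrays were eNOS-deficient 11 and wild type 5, 1 of each genotype. Skeletal muscle markers were highest on the same arrays: 11 genes, with Acta1, Myh4 and Ckm among them, averaged 11.52, 10.02 and 9.95 on eNOS-deficient 11, 15 and 19 and 9.86, 9.02 and 10.93 on wild type 2, 3 and 5. All 11 had a positive difference and none passed the test. The difference depended on single arrays: leaving out eNOS-deficient 11 gave 0.25 and leaving out wild type 3 gave 0.47, neither at an unadjusted p under 0.05, and it was 1.46 without wild type 5 and 0.83 without both eNOS-deficient 11 and wild type 5, both under 0.05. The part of muscle RNA in these differences was not tested. Rpl3 itself was at 8.67, 8.69 and 9.02 in eNOS-deficient aorta against 8.31, 8.28 and 8.81 in wild type, on its brightest probe set (difference 0.33, adjusted p = 0.535), whereas its 2 other probe sets gave -0.25 and -0.14. Without wild type 5 the brightest gave 0.50.

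**Figure D4:**
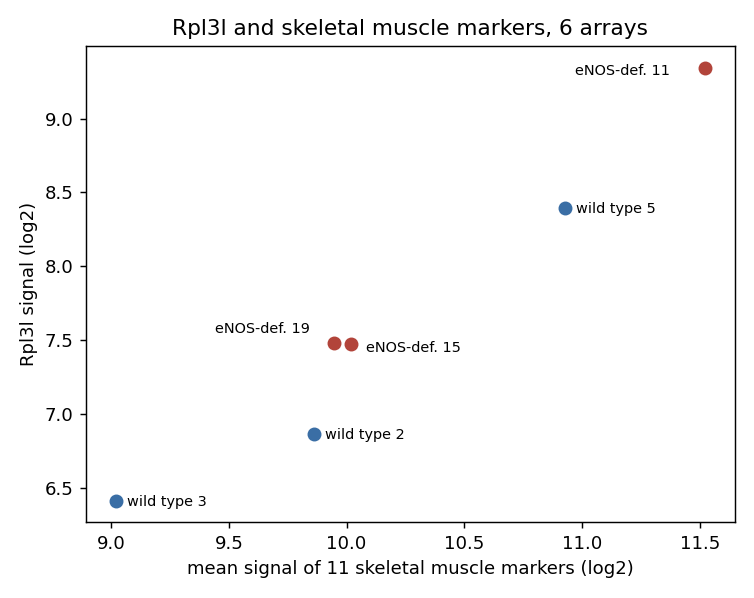
Log2 signal of Rpl3l (vertical) against the mean log2 signal of 11 skeletal muscle markers (horizontal) on each of the 6 arrays, eNOS-deficient in red and wild type in blue; axes do not start at 0. Both are highest on eNOS-deficient 11 (9.35 and 11.52) and lowest on wild type 3 (6.41 and 9.02).

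Rpl9, a large subunit protein, measured 9.03, 8.87 and 9.14 in eNOS-deficient aorta, against 7.98, 8.22 and 9.22 in wild type, so wild type 5 was the highest of all arrays (difference 0.54, standard error 0.30, limma adjusted p = 0.527), and its second probe set gave 0.03. The difference was 0.92 without wild type 5, at an unadjusted p under 0.05, and 0.30 without wild type 2. Rpl34 was at 7.03, 6.80 and 6.92 in eNOS-deficient aorta, against 6.65, 6.34 and 6.80 in wild type. Its groups overlapped only through eNOS-deficient 15 and wild type 5, which were nearly equal (difference 0.32, adjusted p = 0.481). Rps13, a small subunit protein, also had its highest wild-type value on wild type 5 and differed by 0.31, and by 0.51 without that array. Rps15 differed by 0.27, Rps14 by -0.26 and Rpl17 by -0.28, each with overlapping groups. The Rps15 signal was 4.37 on wild type 5 and 5.21 to 5.71 on the other arrays. Without wild type 5 the Rps15 difference changed sign, to -0.12. Rps14 differed by -0.43 without wild type 2 and Rpl17 by -0.44 without eNOS-deficient 15, both at an unadjusted p under 0.05.

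The other paralogs varied less. Rpl39l, a paralog of Rpl39 known from the male germ line, differed by -0.21, and Rpl39 by -0.03. Rpl7l1, which resembles Rpl7, differed by 0.09, and Rpl7 by 0.11. Rps4l differed by -0.02, as did the X-linked Rps4x. For each of these pairs the groups overlapped. Rpl10l, the testis paralog of Rpl10, had signals of 2.99 to 3.43 on all 6 arrays, and Rpl32l of 2.08 to 2.81. These 2 were the members below the filter at 4.38, and they were not tested.

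Rpl5 and Rpl11 bind the 5S ribosomal RNA and, when free, inhibit Mdm2. Rpl5 was at 5.60, 5.34 and 5.12 in eNOS-deficient aorta against 4.99, 5.34 and 5.26 in wild type, and Rpl11 at 5.18, 5.43 and 5.58 in eNOS-deficient aorta against 5.53, 5.27 and 5.42 in wild type. Both had groups that overlapped widely, with differences of 0.16 and -0.01. The P stalk, which recruits elongation factors, was represented by Rplp0 (difference 0.16), Rplp1 (-0.21) and Rplp2 (0.04). Rplp1 measured 10.43, 10.55 and 10.70 in eNOS-deficient aorta against 10.75, 10.62 and 10.95 in wild type, so eNOS-deficient 19 overlapped the wild-type arrays.

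Of 12 genes listed as mutated in Diamond-Blackfan anaemia, a red cell disorder of ribosomal protein deficiency, 11 were members and tested. The list does not hold Rps28, which was lower at an unadjusted p under 0.05 in limma. The median difference of the 11 listed members was 0.03, with 6 positive and 5 negative and none at an unadjusted p under 0.05. At that threshold 7.86% of all genes were higher and 3.72% lower. The smallest p values among them belonged to Rps7 (difference -0.19), Rps19 (-0.16) and Rps29 (-0.23), with adjusted p from 0.599 to 0.702. Rps19 was at 8.74, 8.80 and 8.94 in eNOS-deficient aorta against 9.03, 9.01 and 8.94 in wild type, with eNOS-deficient 19 just above wild type 5.

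Rps6, Rpl41 and Rpl21 had the brightest probe sets, which does not order their transcripts. Rps6, the substrate of S6 kinase downstream of mTOR, was at 12.61, 12.76 and 12.87 in eNOS-deficient aorta, against 12.47, 12.64 and 12.84 in wild type (difference 0.10). Rpl41, which encodes a very short and basic peptide, differed by -0.16 and Rpl21 by 0.16. For all 3 the groups overlapped.

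Other probe sets of the same gene did not always give the same value. The 67 members have 108 probe sets, and 25 members have over 1. For 11 of these 25 the probe sets disagreed in the sign of the difference. The widest gap was that of Rpl3 (-0.25 to 0.33), followed by Rplp0 (-0.38 to 0.16), where the dimmer set was the lower one. The others were Rpl19, Rpl27, Rpl35, Rpl41, Rpl7, Rpl7a, Rps20, Rps28 and Rps3a1. Another 57 probe sets name a ribosomal protein of the same symbol pattern together with other genes. They had a median difference of -0.03, with 27 higher and 30 lower.

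Other genes of the translation machinery were compared through fixed lists. Of 20 measured TOP mRNAs outside the family, 12 had a positive and 8 a negative difference (median 0.02), and none had an unadjusted p under 0.05. Tpt1, the tumour protein TCTP, differed by 0.25, the initiation factor subunit Eif3f by 0.24, the poly(A)-binding protein Pabpc1 by -0.21 and the elongation factor Eef2 by -0.17. Eef2 measured 12.04, 12.04 and 12.13 in eNOS-deficient aorta against 12.25, 12.24 and 12.23 in wild type, lower without overlap, and Tpt1 and Eif3f were higher without overlap. Of the 20, 2 were higher and 1 lower without overlap, beside 13.1% and 6.47% of all genes. A list of 11 elongation factor and like-named genes had a median of 0.04, and none had an unadjusted p under 0.05. Beside both lists, 7.86% of all genes were higher and 3.72% lower at that threshold. Eef2k, Eef2kmt and Eef1e1 on it are not elongation factors themselves. Eef1a2, a muscle and nerve isoform, was at 10.41, 8.84 and 9.09 in eNOS-deficient aorta against 8.84, 8.39 and 9.63 in wild type, with eNOS-deficient 11 and wild type 5 again highest.

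Ribosome biogenesis genes, which make and process ribosomal RNA, had 23 positive and 10 negative differences among 33. Of all genes 56.6% had a positive difference. The biogenesis genes had a median of 0.07 and none had an unadjusted p under 0.05, where 7.86% of all genes were higher and 3.72% lower. Rrp1, which acts in ribosomal RNA processing, differed by 0.24, and Dkc1, the pseudouridine synthase dyskerin, by 0.30, both without overlap. They were among 4 of the 33 that were higher without overlap, beside 13.1% of all genes. The median over 16 genes of mTOR signalling and translation control was 0.03. None of the 16 was lower at an unadjusted p under 0.05, where 3.72% of all genes were. At that threshold 1 was higher, where 7.86% of all genes were. This was Rheb, the GTPase that activates mTOR, at 9.62, 9.30 and 9.35 in eNOS-deficient aorta against 8.78, 8.88 and 9.17 in wild type (difference 0.48, limma adjusted p = 0.337). Among 13 chaperones and import factors of ribosomal proteins 1 was higher at this threshold, Pdcd2l, by 0.43 (limma adjusted p = 0.316), and none lower. The shares of all genes beside these counts are again 7.86% higher and 3.72% lower.

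Mitochondrial ribosomal protein genes, which serve the separate ribosomes of mitochondria, had mostly positive differences. Of 71 tested, 66 had a positive difference, beside 56.6% of all genes. At an unadjusted p under 0.05, 16 were higher, beside 7.86% of all genes, and none lower, and none passed after adjustment. Their median was 0.25, beside -0.01 for the cytosolic members, and for 26 the groups did not overlap, all higher, beside 13.1% of all genes. Mrpl49 measured 8.44, 8.39 and 8.36 in eNOS-deficient aorta, against 7.70, 7.90 and 8.06 in wild type (difference 0.51, limma adjusted p = 0.280). Mrpl54 differed by 0.74, Mrpl58, a release factor of stalled mitochondrial ribosomes, by 0.40, and Mrps33 by 0.37. The mean over the 71 genes was 8.19, 8.08 and 7.91 on eNOS-deficient 11, 15 and 19 and 7.83, 7.93 and 7.73 on wild type 2, 3 and 5, so eNOS-deficient 19 lay below wild type 3. Without eNOS-deficient 11 the median was 0.16, with 4 genes higher at the same threshold, beside 6.25% of all genes. With quantile normalization repeated 6 were higher (6.19% of all genes), and without both eNOS-deficient 11 and wild type 5 there were 3 (9.47%). Array weights gave 29 higher (11.8%), and leaving out eNOS-deficient 19 gave 23 (6.40%). Brown adipocyte markers, 7 genes of a mitochondria-rich cell, averaged 11.21, 11.15 and 11.01 in eNOS-deficient aorta against 10.77, 10.95 and 10.82 in wild type, and skeletal muscle markers are given above. Their part in the mitochondrial values, and the difference between both families, was not tested. With arrays centred on the mitochondrial genes themselves their median is 0.02 by construction, and the other scalings gave 0.17 to 0.31.

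**Figure D5:**
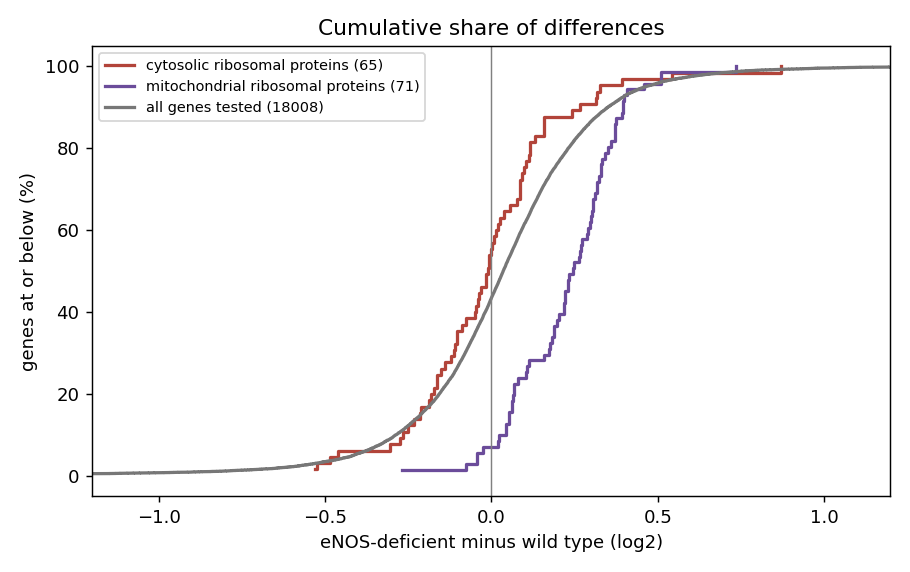
Cumulative share (%) of genes at or below each log2 difference, eNOS-deficient minus wild type, for 65 cytosolic ribosomal protein genes, 71 mitochondrial ribosomal protein genes and all 18008 genes tested. The horizontal axis is cut at -1.2 and 1.2; the medians are -0.01, 0.25 and 0.04.

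The number of members past the unadjusted threshold varied with single arrays. Without wild type 5 there were 7 of 65 members higher and 5 lower, where 8.93% of all genes were higher and 5.93% lower. Without eNOS-deficient 11 there were 0 higher and 2 lower, where 6.25% and 3.11% of all genes were, compared with 1 and 4 members on all 6 arrays. No member was higher when eNOS-deficient 15 was left out, nor when wild type 2 or wild type 3 was. Of all genes 5.15%, 4.96% and 6.84% were higher in these 3 fits. In none of these fits did a member pass an adjusted p under 0.05. The 67 members lie on 19 chromosomes, with the most on chromosome 7 (8 genes), and Rps18, Rps28, Rpl3l, Rpl7l1, Rpl10a and Rps10 are the 6 on chromosome 17.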

How the data were processed

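Log2 values of 6 arrays were used as the authors deposited them. Per the submitters' processing notes they come from RMA and Affymetrix Expression Console 1.3.1; per the labels' protocols, 300 ng of RNA went into biotinylated cDNA. Scanner values were not used here. Of 41345 probe sets, 23525 list 1 gene symbol, 1810 several and 16010 none in the platform annotation; 23328 were found by gene ID in RefSeq and 0 symbols changed. The probe set with the highest mean was kept for each of 22184 genes, and genes whose mean lay below 4.38, the 25th percentile over probe sets, were left out, leaving 18008. RMA scales the probe signals of arrays to one distribution and can hide a shift shared by most genes. The medians of the deposited values still differed between arrays. They were 5.55, 5.58 and 5.59 on eNOS-deficient 11, 15 and 19 and 5.63, 5.61 and 5.68 on wild type 2, 3 and 5.

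The genotypes were compared in R 4.3.3 by limma 3.58.1 (two-sided, no covariates, all 6 arrays; functions lmFit and eBayes) and Benjamini-Hochberg adjustment over 18008 genes. The script was run on simulated data with independent noise and planted changes larger than the difference of any member. That run does not show how well changes of the members' size would be found. Alternatives changed the filter, the variance model, the probe set choice, the scaling and the arrays used. Lists are described by counts and medians without a test. Depth does not apply to arrays; their number limits the precision. Members, lists and tests were chosen with earlier results of these data known.

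Named members were those with the smallest unadjusted p under 0.05, the 3 with the highest and the 3 with the lowest signal, all paralogs, Rpl5, Rpl11, the P stalk, 3 Diamond-Blackfan genes and members with discordant probe sets, with up to 4 genes of each other list. Rps18, Rps23, Rps13, Rps14, Rps15, Rps27, Rps4x, Rps10, Rpl22, Rpl9, Rpl34, Rpl39, Rpl10a and Rpl17 were named outside this rule, after their values were seen. Python 3.11.15 and matplotlib 3.10.9 made the plots.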

Additional observations from a re-analysis of the deposited data

How the results depend on the processing

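No member passed an adjusted p under 0.05 in limma in any of the 16 alternatives. The smallest adjusted p of a member was 0.0669 with array weights, 0.0973 without eNOS-deficient 11 and wild type 5, and 0.121 without wild type 5. Genes called among all tested numbered 5, against 3 with no dim filter, 2 with probe sets of a gene averaged, 2 with quantile normalization repeated, 0 with arrays centred on mitochondrial ribosomal protein genes, 119 with array weights, 2 without eNOS-deficient 11 and wild type 5, and 0 to 6 with each array left out. Members higher at an unadjusted p under 0.05 numbered 1 (7.86% of all genes). They numbered 2 with arrays centred on their medians (11.3% of all genes), 0 with quantile normalization repeated (6.19%) and 0 with mitochondrial centring (1.23%). There were 6 with array weights (11.8%), 6 without both arrays (9.47%), and 0 to 7 with each array left out (4.96% to 8.93%). Members lower numbered 4 (3.72% of all genes), against 2 on the second brightest probe set (3.71%) and 13 with mitochondrial centring (14.4%). With each array left out 2 to 5 were lower (2.38% to 5.93% of all genes). Mitochondrial centring moved the median of all genes from 0.04 to -0.19, and 14.4% of all genes were then lower. It put the members' median at -0.24, that of the large subunit at -0.23 and that of the small subunit at -0.27. Relative to all genes the members' median was -0.04, by construction the same with either centring. It was -0.01 with no dim filter and -0.09 with a dim filter at the 50th percentile. It was -0.08 with quantile normalization repeated, -0.13 without wild type 2, -0.10 without eNOS-deficient 19, -0.0025 without wild type 5 and 0.02 without both arrays. With each array left out the members' median was -0.08 to 0.03 and that of the small subunit -0.12 to -0.030. The 5 members with an unadjusted p under 0.05 had 79 values in the alternatives, of which 59 stayed past that threshold, 19 did not, and 1 changed sign: Rps28 was 0.018 on its second probe set. At the same threshold 1415 of all genes lay higher and 669 lower, against 2028 and 388 with arrays centred on their medians and 221 and 2598 with mitochondrial centring. The causes were not tested. No paired analysis was possible because the groups share no replicate numbers.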
